A study of Homo sapiens with 20 samples.

Results

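The genes described here encode the mitochondrial ribosomal proteins, the MRPL and MRPS proteins of the large and small subunit of the mitochondrial ribosome. Members were taken by name, as protein-coding genes whose symbol begins with MRPL or MRPS and a digit, and 78 of the 60271 genes in the deposited table met this rule. A further 79 pseudogene and 6 long noncoding rows carry such names and were left out, and the pseudogene rows summed to 0.150% of the members' counts. Measured values do not enter the rule on names, though the members were chosen with earlier results of these data known. The study followed epithelial-to-mesenchymal transition (EMT) in MDA-MB-468 cells, a triple-negative breast cancer line with high epidermal growth factor receptor (EGFR), after addition of epidermal growth factor (EGF). RNA-seq covered 5 groups of 4 biological replicates, 20 libraries in all. These were untreated control cells and cells exposed to EGF (50 ng/mL) during the last 12, 24, 48 or 72 h of culture. All cells, controls included, were serum-starved for 24 h before EGF was due, and all groups were seeded and harvested together. The model is a single cell line, measured as bulk RNA.

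Mitochondrial ribosomes sit in the matrix and translate the few mRNAs of the mitochondrial genome, all of which encode subunits of the respiratory chain and of ATP synthase. Their rRNAs come from mitochondrial DNA, while every protein is encoded in the nucleus, made in the cytosol and imported. Some of the proteins descend from the bacterial ancestor and others were added during the evolution of mitochondria, and their mRNAs are present in nearly every cell type, with high levels in tissues that respire strongly.

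Total counts ranged from 15611961 to 25856953 per library, with group medians between 17292986.5 at 72 h and 21972653 at 12 h. Expression is given as CPM (counts scaled to a common library total) after TMM normalization, and errors are the SD over 4 libraries unless SE is stated. All 78 members passed the filter on low counts, as did 16522 of 33535 genes with at least 1 count, and no member fell under 20 counts in any library. Each adjusted p is from edgeR's quasi-likelihood test, two-sided, adjusted by Benjamini-Hochberg over the 16522 genes, and the threshold was 0.05. A gene is said to have risen or fallen where it passed this threshold. The epithelial markers EPCAM, CDH1, KRT7, KRT8, KRT18 and KRT19 were all expressed. Among the receptors low in triple-negative cells, PGR had 0 counts. ESR1 ranged from 1.91 to 6.53 CPM and ERBB2 from 7.79 to 24.6 CPM over the libraries. None of the markers of fibroblasts, immune and endothelial cells exceeded 14.8 CPM in a library (COL1A1). By Dixon's test, no library stood apart from its group in the median over the members. All 4 time points were compared with the same 4 controls.

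RefSeq (GRCh38.p14) gave 85 promoters for 69 of the members, each from 250 bases before the transcription start to 50 after it. The promoters shown are those of the 3 members that rose most at 12 h (MRPS2, MRPL14 and MRPS12), of the 3 that fell most (MRPS33, MRPS14 and MRPL40), and of MRPL46 and MRPS11, which are transcribed away from each other from a shared region. For each gene only the promoter whose start lies nearest to GENCODE's gene start is shown. RefSeq holds 3 promoters of MRPL14, and 2 each of MRPS2, MRPS12 and MRPS33. Capitals mark exact matches, on either strand, to the letters TGCGCATGC (NRF1), CCGGAAG (ETS), CACGTG (E-box), AAGATGGCG (YY1) or GGGGCGGGG (SP1), and the sequences of MRPL14 and MRPS11 hold none of these.
MRPS2, chr9:135499715-135500014, + strand: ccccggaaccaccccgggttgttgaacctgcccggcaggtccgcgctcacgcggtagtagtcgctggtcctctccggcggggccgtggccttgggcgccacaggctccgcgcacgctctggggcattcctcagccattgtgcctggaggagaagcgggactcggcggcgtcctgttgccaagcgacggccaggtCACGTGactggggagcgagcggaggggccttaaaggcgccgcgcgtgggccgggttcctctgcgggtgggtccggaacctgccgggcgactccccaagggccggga
MRPL14, chr6:44127259-44127558, - strand: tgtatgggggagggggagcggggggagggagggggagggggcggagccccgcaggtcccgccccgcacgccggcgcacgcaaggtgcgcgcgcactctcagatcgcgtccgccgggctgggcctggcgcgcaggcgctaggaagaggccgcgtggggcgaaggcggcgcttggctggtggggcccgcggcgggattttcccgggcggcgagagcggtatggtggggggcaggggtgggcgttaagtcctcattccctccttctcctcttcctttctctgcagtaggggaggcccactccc
MRPS12, chr19:38930694-38930993, + strand: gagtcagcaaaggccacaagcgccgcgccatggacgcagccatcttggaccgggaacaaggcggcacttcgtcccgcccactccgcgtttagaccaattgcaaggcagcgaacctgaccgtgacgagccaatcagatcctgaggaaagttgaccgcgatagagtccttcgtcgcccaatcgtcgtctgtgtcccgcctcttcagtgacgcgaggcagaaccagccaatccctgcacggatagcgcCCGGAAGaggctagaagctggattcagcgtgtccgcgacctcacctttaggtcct
MRPS33, chr7:141014903-141015202, - strand: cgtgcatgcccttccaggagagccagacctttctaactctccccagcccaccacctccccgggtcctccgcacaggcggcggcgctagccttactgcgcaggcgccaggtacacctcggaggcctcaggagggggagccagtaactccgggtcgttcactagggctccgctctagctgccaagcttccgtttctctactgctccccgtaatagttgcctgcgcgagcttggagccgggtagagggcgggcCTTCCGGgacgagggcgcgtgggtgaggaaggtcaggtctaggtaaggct
MRPS14, chr1:175023376-175023675, - strand: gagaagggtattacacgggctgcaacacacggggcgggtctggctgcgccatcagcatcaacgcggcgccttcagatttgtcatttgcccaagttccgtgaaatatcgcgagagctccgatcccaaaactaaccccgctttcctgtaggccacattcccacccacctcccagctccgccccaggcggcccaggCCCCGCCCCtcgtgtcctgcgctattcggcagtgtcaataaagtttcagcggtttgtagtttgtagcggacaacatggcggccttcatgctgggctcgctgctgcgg
MRPL40, chr22:19432295-19432594, + strand: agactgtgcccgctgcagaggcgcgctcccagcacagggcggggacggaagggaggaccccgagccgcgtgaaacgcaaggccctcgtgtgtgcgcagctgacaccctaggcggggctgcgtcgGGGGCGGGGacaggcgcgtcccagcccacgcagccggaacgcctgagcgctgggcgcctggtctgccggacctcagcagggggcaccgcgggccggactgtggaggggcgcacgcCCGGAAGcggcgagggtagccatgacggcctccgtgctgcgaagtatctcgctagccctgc
MRPL46, chr15:88467339-88467638, - strand: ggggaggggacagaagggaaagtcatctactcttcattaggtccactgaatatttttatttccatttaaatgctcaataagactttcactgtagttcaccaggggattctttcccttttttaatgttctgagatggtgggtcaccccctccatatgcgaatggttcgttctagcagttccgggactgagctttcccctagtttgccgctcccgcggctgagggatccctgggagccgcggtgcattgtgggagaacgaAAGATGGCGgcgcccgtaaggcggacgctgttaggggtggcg
MRPS11, chr15:88467458-88467757, + strand: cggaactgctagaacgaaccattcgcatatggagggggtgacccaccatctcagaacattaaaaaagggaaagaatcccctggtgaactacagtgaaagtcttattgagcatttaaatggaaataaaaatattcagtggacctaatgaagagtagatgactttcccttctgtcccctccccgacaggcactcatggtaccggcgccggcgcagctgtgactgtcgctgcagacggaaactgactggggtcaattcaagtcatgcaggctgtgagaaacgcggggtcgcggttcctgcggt

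The match capitalized for MRPS2 is an E-box, the sequence bound by MYC and related factors. In the sequences shown, MRPS12, MRPS33 and MRPL40 have an ETS match close to the start. There MRPS14 and MRPL40 have an SP1 match, and MRPL46 has a YY1 match just after the start. Among promoters not shown, MRPL14 and MRPS33 have an E-box match. The promoter of MRPS2 that is not shown has no E-box match, and that of MRPS33 no ETS match. Over all members, ETS matches were found in 33 of 85 promoters (38.8%), against 10.3% of all 35116 RefSeq promoters and 16.4% of the 15580 promoters of protein-coding genes tested here. YY1 matches were found in 13 member promoters (15.3%, against 1.75% and 3.24%), and NRF1 matches in 5 (5.88%, against 1.56% and 2.26%). The shorter NRF1 core GCGCATG, which lies within the longer letters, was in 7 (8.24%, against 4.43% and 6.22%). E-box matches were in 9 (10.6%, against 7.26% and 8.95%) and SP1 matches in 19 (22.4%, against 15.7% and 24.6%). By the response at 12 h, ETS matches were in 8 of 29 promoters of members that rose, 11 of 30 of members that fell and 14 of 26 of the others. E-box matches were in 5, 4 and 0 of these, and YY1 matches in 6, 3 and 4. These are counts of letters in a window, with no test and no measurement of binding.

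After 12 h of EGF the mitochondrial ribosomal protein mRNAs moved in both directions, and from 24 h on most of those that changed were lower than in the control. At 12 h, 22 members rose and 27 fell, against 32.9% of all genes tested that rose and 36.5% that fell. At 24 h, 7 rose and 35 fell, against a background of 29.2% higher and 29.6% lower. At 48 h, 3 rose and 32 fell (24.0% and 21.8% of all genes), and at 72 h, 5 rose and 46 fell (30.6% and 31.0%). The members' median log2 fold change was -0.07, -0.15, -0.14 and -0.29 at these times, where the median of all genes tested was -0.0544, -0.0071, 0.0099 and -0.0090. The median at 12 h was -0.0384 without 12 h replicate 4 and -0.0468 without control replicate 1. At 12 h the members' shares of rises and falls, 28.2% and 34.6%, were close to those of all genes. At 72 h the share that fell was 59.0%. In bulk RNA, fewer cells of a type and less RNA per cell cannot be told apart.

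**Figure D1:**
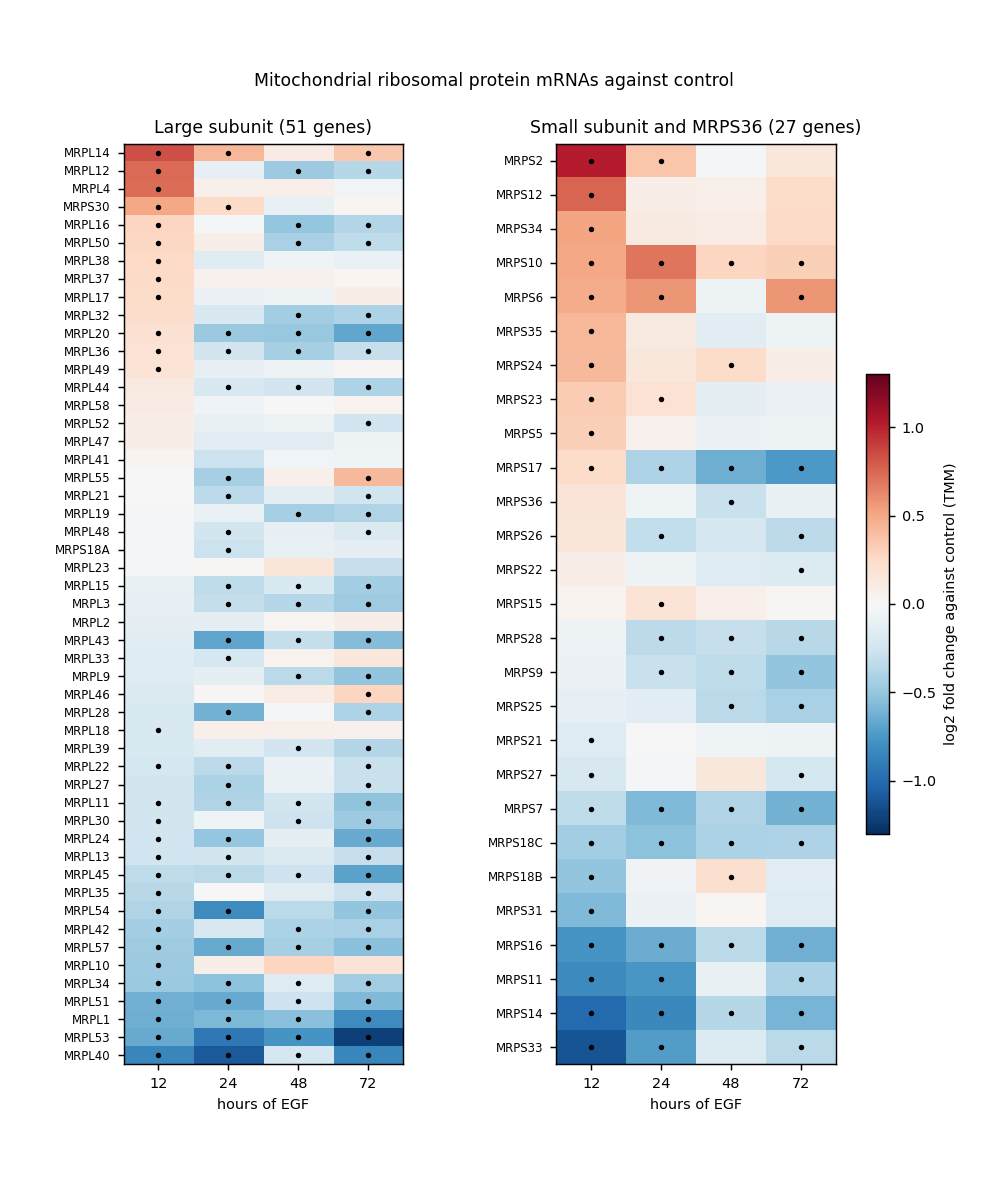
Log2 fold change against the control (color, TMM normalization) of all 78 mitochondrial ribosomal protein genes at the 4 times of EGF exposure, with the large subunit on the left, the small subunit and MRPS36 on the right, and dots for adjusted p under 0.05. The column at 12 h holds both rises (22) and falls (27), while falls make up most dots at 72 h (46 of 51).

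The split at 12 h depends on how libraries were scaled, and the scaling moved the center of all genes with it. The TMM factors were 0.86 to 0.90 at 12 h and 1.06 to 1.08 in the control. With scaling by library size only, the median of all genes at 12 h was -0.3373, 21.7% of genes rose and 50.1% fell, and 8 members rose and 49 fell. With upper quartiles 13 rose and 41 fell. The members' median relative to that of all genes was nearly the same under all 3 scalings, at -0.0201, -0.022 and -0.0188 at 12 h and at -0.2849, -0.2856 and -0.287 at 72 h. Each of these scalings applies 1 factor per library, which shifts all genes nearly alike, so this does not test the difference. With the factors per gene of the authors' normalized values, the members' median was -0.0679 at 12 h and -0.3138 at 72 h. The median of the 11956 genes then tested was 0.0642 and -0.0403. At 24 h, 3 members rose and 53 fell with library size only.

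Among the members that rose most at 12 h, MRPS2 (ENSG00000122140, chr9:135499984-135504673, + strand), a small subunit protein conserved with bacteria, lay at 51.2, 74.2, 46.2 and 60.2 CPM in the controls and at 119.7, 114, 119 and 119 CPM at 12 h. All 12 h libraries lay above all controls, in which the spread was wider than after EGF. This was 2.03-fold (log2 1.02 ± 0.12, SE, adjusted p = 5.48e-08). MRPL14 (chr6:44113454-44127457, - strand), a conserved protein at the interface of the subunits, lay at 29.3, 29.8, 23.2 and 25.3 CPM in the controls and at 54, 44.9, 45.2 and 47.5 at 12 h, with no overlap, a difference of 1.78-fold (log2 0.83 ± 0.09, SE, adjusted p = 1.52e-08). MRPS12 (chr19:38930548-38933162, + strand), the counterpart of bacterial S12 in the decoding center, lay at 28.5, 36.4, 19 and 25.4 CPM in the controls and at 48.3, 43.9, 46.6 and 46 at 12 h, 1.69-fold (log2 0.76 ± 0.14, SE, adjusted p = 3.7e-05). The lowest control of MRPS2 and of MRPS12 was replicate 3. At 24 h MRPS2 was still above the control at 74.5 ± 5.89 CPM (log2 0.36 ± 0.12, SE, adjusted p = 0.0117), and at 48 h it lay at 57 ± 9.2 CPM. MRPS2 shares 14.4% and MRPS12 16.3% of its exon bases with a gene on the opposite strand (AL161452.1 and SARS2), and the strand setting of the counting is not given in the sources used here.

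**Figure D2:**
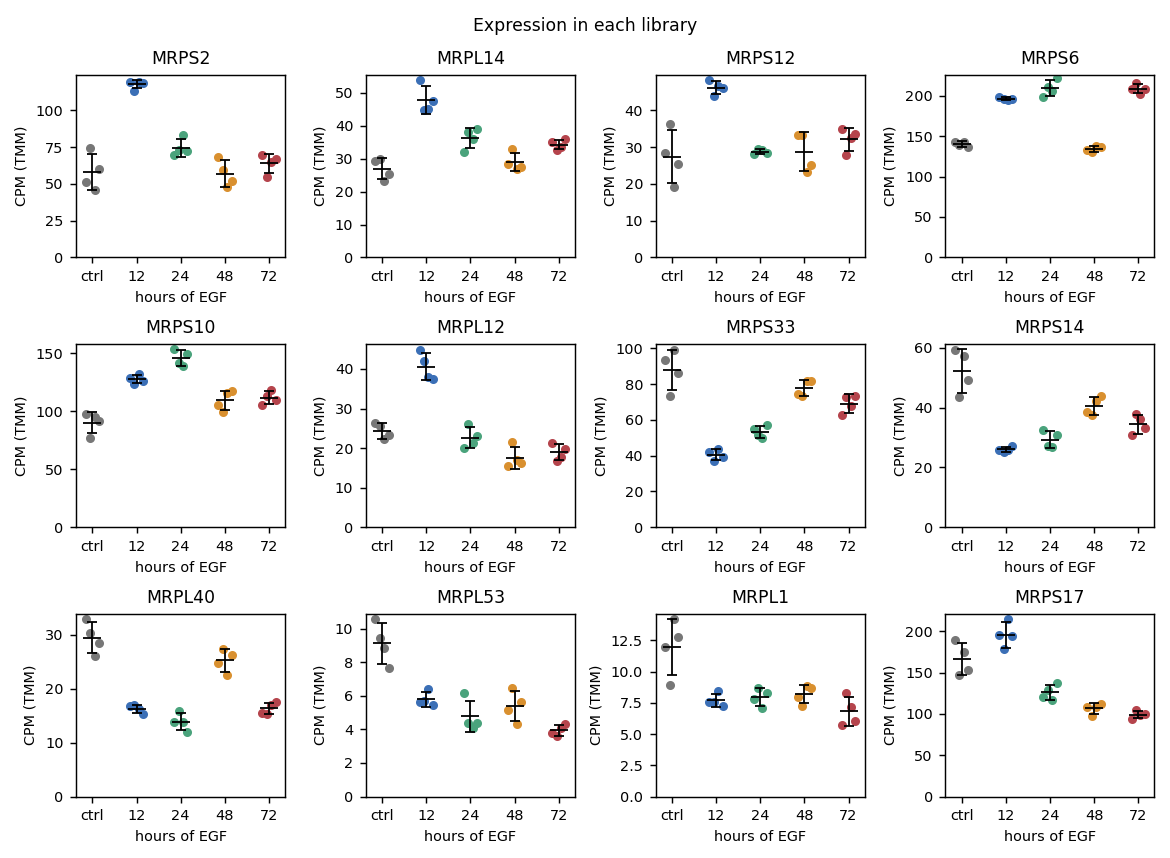
CPM after TMM normalization in each of the 20 libraries (points) for 12 mitochondrial ribosomal protein genes, by hours of EGF on axes that start at 0, with the mean and SD of 4 libraries in black. MRPS2 peaks at 12 h at 118 CPM, MRPS33 is lowest at 12 h at 40.5 CPM, and MRPS6 lies at 134 CPM at 48 h between 209 at 24 h and 208 at 72 h.

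Of the 3 members that fell most at 12 h, MRPS33 and MRPS14 belong to the small subunit and MRPL40 to the large. MRPS33 (chr7:141002610-141015228, - strand), a protein added in mitochondria, lay at 93.5, 73.3, 99.3 and 86.1 CPM in the controls and at 41.7, 37, 43.8 and 39.4 at 12 h. Every library at 12 h was below every control, at 0.46-fold (log2 -1.12 ± 0.09, SE, adjusted p = 3.9e-11) of the control. MRPS14 (chr1:175010789-175023425, - strand), a conserved protein of the small subunit head, lay at 59.2, 43.4, 57.3 and 49.3 CPM in the controls and at 25.7, 25.3, 26 and 27.1 at 12 h, 0.497-fold (log2 -1.01 ± 0.09, SE, adjusted p = 1.31e-09). The groups did not overlap and the 12 h libraries were close together. MRPL40 (chr22:19431902-19436075, + strand), a large subunit protein without a bacterial counterpart, lay at 32.9, 30.3, 26.1 and 28.4 CPM in the controls and at 16.7, 17, 16.1 and 15.3 at 12 h, 0.554-fold (log2 -0.85 ± 0.09, SE, adjusted p = 1.13e-08). MRPS14 shares 13.5% of its exon bases with CACYBP on the opposite strand. Of the members not named for the size of their change, MRPL4 and MRPS30 of the large and MRPS34 of the small subunit also rose at 12 h, to 1.65, 1.42 and 1.42 times the control, and MRPS16 fell to 0.587 times (chosen after their values were seen).

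At 24 h the largest rises were those of MRPS10 and MRPS6, both of the small subunit. MRPS10 (chr6:42206801-42217865, - strand), a conserved protein of the small subunit head, lay at 97.2, 76.8, 95.3 and 91.3 CPM in the controls and at 154, 142, 139 and 149 at 24 h, all above the controls, 1.62-fold (log2 0.69 ± 0.07, SE, adjusted p = 1.58e-08). MRPS6 (chr21:34073224-34143034, + strand), another conserved protein, lay at 143, 139, 143 and 136 CPM in the controls and at 199, 210.3, 206 and 221 at 24 h, 1.49-fold (log2 0.58 ± 0.05, SE, adjusted p = 9.99e-10). MRPL14 lay at 32.1, 38, 36.1 and 39.1 CPM, above all controls but below all 12 h libraries, 1.35-fold (log2 0.43 ± 0.09, SE, adjusted p = 0.000238). MRPL40 lay at 13.8, 15.8, 13.9 and 12 CPM, which was 0.47-fold (log2 -1.09 ± 0.09, SE, adjusted p = 3.84e-10) of the control. MRPS14 lay at 32.4, 27.1, 26.7 and 30.8 CPM, 0.56-fold (log2 -0.84 ± 0.09, SE, adjusted p = 4.71e-08), and no library reached the lowest control. MRPL53 (chr2:74471958-74473322, - strand) encodes a large subunit protein, and its mRNA level was low. It lay at 10.6, 9.46, 8.88 and 7.64 CPM in the controls and at 6.18, 4.41, 4.1 and 4.39 at 24 h. Replicate 1 was the highest at 24 h and still below every control. The difference was 0.525-fold (log2 -0.93 ± 0.14, SE, adjusted p = 4.07e-06). MRPL53 shares 45.2% of its exon bases with CCDC142 on the same strand, so its counts may include reads of that gene.

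At 48 h the changes were smaller, with log2 fold changes from -0.77 to 0.28. MRPS10 lay at 106, 99.3, 115 and 117 CPM, above all controls, 1.21-fold (log2 0.28 ± 0.07, SE, adjusted p = 0.00276). This call was lost with the factors per gene of the authors' normalized values (log2 0.20, adjusted p = 0.115). MRPS24, the counterpart of bacterial S3, lay at 85.3, 96.8, 68.1 and 78 CPM in the controls and at 106, 104, 86.5 and 89.7 at 48 h, 1.18-fold (log2 0.24 ± 0.09, SE, adjusted p = 0.0343), with only 2 of 4 libraries above all controls. MRPS18B lay at 83.4, 94, 80.2 and 80.7 CPM in the controls and at 96.4, 105, 89.4 and 98.8 at 48 h, 1.15-fold (log2 0.20 ± 0.07, SE, adjusted p = 0.0136), with 3 of 4 libraries above all controls. Without 48 h replicate 2 both calls were lost (MRPS24 log2 0.20, adjusted p = 0.094, and MRPS18B log2 0.17, adjusted p = 0.0513), and 1 member rather than 3 was higher at 48 h. The call of MRPS24 was also lost without control replicate 3 (log2 0.15), control replicate 4 (0.21) or 48 h replicate 1 (0.19). Of the falls, MRPL53 lay at 5.15, 6.46, 4.29 and 5.62 CPM, 0.588-fold (log2 -0.77 ± 0.14, SE, adjusted p = 6.62e-05). MRPS17 (chr7:55951819-55956501, + strand), a conserved protein that binds the small subunit rRNA, lay at 189, 147, 175 and 154 CPM in the controls and at 108, 97.7, 109 and 113 at 48 h, 0.643-fold (log2 -0.64 ± 0.08, SE, adjusted p = 5.1e-07). MRPL1 (chr4:77862520-77952790, + strand), the protein of the mobile L1 stalk, lay at 12, 8.96, 14.2 and 12.8 CPM in the controls and at 7.98, 7.24, 8.81 and 8.7 at 48 h, 0.685-fold (log2 -0.55 ± 0.13, SE, adjusted p = 0.00124). The groups did not overlap for any of these 3 falls.

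At 72 h, MRPS6 lay at 208, 216, 202 and 208 CPM, above all controls, 1.48-fold (log2 0.57 ± 0.05, SE, adjusted p = 1.02e-09). MRPL14 lay at 35, 32.7, 33.4 and 35.9 CPM, 1.27-fold (log2 0.35 ± 0.09, SE, adjusted p = 0.00184). MRPL55, of the large subunit, lay at 23.1, 23.2, 17.9 and 20.4 CPM in the controls and at 30.8, 25.9, 25.2 and 31 at 72 h, all above the controls, 1.34-fold (log2 0.42 ± 0.17, SE, adjusted p = 0.0353). This call of MRPL55 was lost without control replicate 3 (log2 0.35, adjusted p = 0.114), control replicate 4 (0.40, adjusted p = 0.0723), 72 h replicate 1 (0.38, adjusted p = 0.0848) or 72 h replicate 4 (0.38, adjusted p = 0.0862). Without control replicate 4 or 72 h replicate 4, 3 members rather than 5 were higher at 72 h. The largest fall was that of MRPL53, at 3.82, 3.58, 4.08 and 4.34 CPM, 0.433-fold (log2 -1.21 ± 0.14, SE, adjusted p = 9.16e-08). MRPL40 lay at 15.5, 15.3, 17 and 17.5 CPM, 0.554-fold (log2 -0.85 ± 0.09, SE, adjusted p = 1.77e-08), and MRPL1 at 5.74, 8.31, 7.15 and 6.07 CPM, 0.568-fold (log2 -0.82 ± 0.13, SE, adjusted p = 9.92e-06). In each of these 3 genes the 4 libraries at 72 h lay below all controls.

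Between successive times, most members that changed from 12 to 24 h fell, and MRPS6 and MRPL40 changed back and forth from 24 to 48 and 72 h. From 12 to 24 h, 8 members rose and 35 fell, against 27.9% and 25.9% of all genes. With library size only the split was 16 and 15, and with upper quartiles 16 and 18, with medians of all genes of 0.1816 and 0.1562. MRPL10, which anchors the stalk of the large subunit, went from 10.4, 12.6, 11.2 and 11.3 CPM at 12 h to 18.3, 15.3, 17.4 and 15.6 at 24 h, 1.46-fold (log2 0.55 ± 0.13, SE, adjusted p = 0.00129), and MRPS31, a small subunit protein added in mitochondria, from 15.3, 16.7, 14.7 and 16.4 to 25, 21.6, 21 and 21.5 CPM, 1.41-fold (log2 0.50 ± 0.08, SE, adjusted p = 1.13e-05). Neither gene's groups overlapped, and at 24 h neither differed detectably from the controls, which lay at 15.8 ± 3.42 CPM for MRPL10 (adjusted p = 0.612) and 23.5 ± 1.69 CPM for MRPS31 (adjusted p = 0.405). The largest falls were those of MRPL12, 0.558-fold (log2 -0.84 ± 0.10, SE, adjusted p = 5e-07), and MRPL20, 0.621-fold (log2 -0.69 ± 0.08, SE, adjusted p = 2.55e-07). At 24 h MRPL20 lay at 26.7, 23.1, 23.7 and 23.7 CPM, below all 12 h libraries.

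From 24 to 48 h, 19 members rose and 14 fell, against 25.9% and 24.3% of all genes, and 33 rose and 4 fell with library size only, which moved the median of all genes to 0.1738. MRPL40 went from 13.8, 15.8, 13.9 and 12 CPM to 24.7, 27.4, 22.6 and 26.2 CPM, 1.82-fold (log2 0.87 ± 0.09, SE, adjusted p = 5.43e-08). MRPS11, a conserved protein of the small subunit platform, went from 25.2, 22.3, 18.4 and 22.4 to 36.4, 39.3, 32.4 and 31.8 CPM, 1.58-fold (log2 0.66 ± 0.09, SE, adjusted p = 2.16e-06), where the controls lay at 37.4 ± 2.81 CPM. MRPS6 went from 199, 210.3, 206 and 221 to 132, 129.9, 138 and 136 CPM, 0.641-fold (log2 -0.64 ± 0.05, SE, adjusted p = 6.44e-10), so that at 48 h it did not differ detectably from the control (log2 -0.06 ± 0.05, SE, adjusted p = 0.32). MRPL50 of the large subunit went from 81, 81.6, 82.2 and 84.1 to 55.9, 51.3, 61 and 64.9 CPM, 0.709-fold (log2 -0.50 ± 0.07, SE, adjusted p = 2.7e-06). None of these groups overlapped. From 48 to 72 h, 2 members rose and 15 fell, against 17.9% and 17.9% of all genes, and 1 rose when replicate 1, 3 or 4 of either time was left out. MRPS6 then went back to 208, 216, 202 and 208 CPM, 1.55-fold (log2 0.63 ± 0.05, SE, adjusted p = 1.37e-09), and MRPL40 back to 15.5, 15.3, 17 and 17.5 CPM, 0.647-fold (log2 -0.63 ± 0.09, SE, adjusted p = 8.01e-06). MRPL24, which lines the exit tunnel of the large subunit, went from 24.5, 23.6, 19.98 and 20.5 to 15.1, 13.7, 16.1 and 16.2 CPM, 0.69-fold (log2 -0.53 ± 0.10, SE, adjusted p = 0.000227). At 12 h MRPS6 had already risen against the control, to 198, 196, 194 and 195 CPM (log2 0.48 ± 0.05, SE, adjusted p = 1.21e-08), so that of the 4 times only 48 h showed no call.

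6 members were called higher at 12 h and lower at later times. MRPL12, MRPS17, MRPL20 and MRPL50 are described first, as members named for the size of a change. MRPL12, the stalk protein that recruits translation factors, lay at 26.4, 25.7, 22.2 and 23.3 CPM in the controls and at 44.8, 42, 38.1 and 37.5 at 12 h. It then lay at 20.1, 26.1, 21.4 and 23 CPM at 24 h, at 15.5, 21.6, 17 and 16.1 at 48 h and at 21.3, 16.8, 17.7 and 19.7 at 72 h. The 12 h libraries stood above all others (log2 0.73 ± 0.10, SE, adjusted p = 1.05e-06), and the level at 48 h was below the control (log2 -0.47 ± 0.11, SE, adjusted p = 0.00079) and below 12 h (log2 -1.21 ± 0.11, SE, adjusted p = 5.36e-10). MRPL12 shares 68.2% of its exon bases with AC139530.2 on the same strand, so that its counts are uncertain. MRPS17 lay at 195, 178, 216 and 194 CPM at 12 h and at 93.4, 104, 99.3 and 100 at 72 h, a difference without overlap (log2 -0.98 ± 0.08, SE, adjusted p = 2.15e-10). It was higher than the control at 12 h (log2 0.24 ± 0.08, SE, adjusted p = 0.00993) and lower at 72 h (log2 -0.74 ± 0.08, SE, adjusted p = 2.04e-08). At 12 h 1 control of MRPS17, replicate 1, lay within the range of the EGF libraries. MRPS17 shares 27.0% of its exon bases with AC092647.5. MRPL20, a conserved large subunit protein, lay at 35.7, 35.9, 31.4 and 33.1 CPM in the controls, 41.5, 36.8, 40.3 and 37.9 at 12 h and 21.8, 18.4, 21.3 and 24 at 72 h. Its rise at 12 h was small (log2 0.20 ± 0.08, SE, adjusted p = 0.0276) and its later fall larger (log2 -0.87 ± 0.08, SE, adjusted p = 2.48e-09, 72 against 12 h). MRPL50 lay at 78.7, 73.8, 84.4 and 75.7 CPM in the controls, 92, 88.1, 102 and 95.2 at 12 h and 61.8, 62.3, 62 and 61.7 at 72 h, the last below all controls (log2 -0.34 ± 0.07, SE, adjusted p = 0.000189). MRPL16 and MRPL36, conserved large subunit proteins named after their values were seen, were the other two. MRPL16 rose at 12 h (log2 0.28 ± 0.06, SE, adjusted p = 0.000327) and fell at 48 h (log2 -0.50 ± 0.06, SE, adjusted p = 5.39e-07) and 72 h (log2 -0.38 ± 0.06, SE, adjusted p = 1.32e-05), and was lower at 48 than at 12 h (log2 -0.79 ± 0.06, SE, adjusted p = 1.2e-10). MRPL36 rose slightly at 12 h (log2 0.19 ± 0.07, SE, adjusted p = 0.0262) and was lower than the control at 24, 48 and 72 h (log2 -0.24, -0.43 and -0.30).

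2 members took the opposite course. MRPS18B fell at 12 h, to 63, 56.6, 59.5 and 58.1 CPM, all below the controls (log2 -0.51 ± 0.07, SE, adjusted p = 3.14e-07), lay at 88.1, 81.1, 82.1 and 77 CPM at 24 h and had its highest mean at 48 h (log2 0.72 ± 0.07, SE, adjusted p = 1.51e-09, 48 against 12 h). MRPL55 lay at 22.8, 21.8, 19.8 and 20.8 CPM at 12 h, at 20.6, 17.5, 7.89 and 16.4 at 24 h and had its highest mean at 72 h (log2 0.85 ± 0.17, SE, adjusted p = 0.000459, 72 against 24 h). Replicate 3 was low among the 24 h libraries of MRPL55 (7.89 CPM), and this fall against the control had an adjusted p of 0.0382.

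By subunit, 51 members belong to the large and 26 to the small subunit, and MRPS36 was left out of both because its protein is now assigned to the 2-oxoglutarate dehydrogenase complex. Of the large subunit, 12 genes rose and 17 fell at 12 h, 2 and 25 at 24 h and 3 and 33 at 72 h, and 23 fell at 48 h. Of the small subunit, 10 rose and 10 fell at 12 h, 5 and 10 at 24 h, 3 and 8 at 48 h and 2 and 13 at 72 h. The median log2 fold change was -0.11, -0.21, -0.15 and -0.30 for the large and -0.0095, -0.05, -0.11 and -0.17 for the small subunit. A difference between the subunits was not tested. Among all genes tested, 32.9% rose and 36.5% fell at 12 h, and 29.2% rose and 29.6% fell at 24 h. The shares were 24.0% and 21.8% at 48 h and 30.6% and 31.0% at 72 h. Of 45 members conserved with bacteria, 14 rose and 16 fell at 12 h and 3 rose and 28 fell at 72 h, and of 29 members added in mitochondria 8 rose and 10 fell at 12 h and 1 rose and 18 fell at 72 h. MRPS36 itself lay at 30.9, 34.7, 29.6, 25.4 and 28.8 CPM (means of the control, 12, 24, 48 and 72 h).

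The S18 proteins are 3 paralogues of which a ribosome holds all, MRPS18A in the large and MRPS18B and MRPS18C in the small subunit. MRPS18A had a mean of 37.6 ± 3.17 CPM in the control, 37.1 ± 1.67 at 12 h and 34.8 ± 3.13 at 72 h, and fell at 24 h (log2 -0.28 ± 0.08, SE, adjusted p = 0.00702). MRPS18C had a mean of 57.4 ± 10.8 CPM in the control and of 41.8 ± 0.866, 39.5 ± 4.67, 43 ± 4.12 and 43.4 ± 1.89 CPM at 12, 24, 48 and 72 h, and fell at 12 h (log2 -0.46 ± 0.11, SE, adjusted p = 0.000591) as MRPS18B did. MRPS18A and MRPS18C share 47.0% and 40.2% of their exon bases with RSPH9 and ABRAXAS1 on the opposite strand. MRPL58, a peptidyl-tRNA hydrolase built into the large subunit that can release stalled chains, had means between 33.9 and 37.6 CPM. It was 1 of 5 members called in none of the 4 comparisons with the control, with MRPL2, MRPL23, MRPL41 and MRPL47, whose log2 fold changes lay between -0.30 and 0.16.

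Per kilobase of merged exon, the most abundant members over all libraries were MRPL37 (97.9 CPM per kb), MRPS15 (88.3) and MRPL3 (78.8), and the least abundant were MRPL46 (1.21), MRPS25 (1.46) and MRPL23 (2.04). Merged exons include bases that only some transcripts hold, and their length ranged from 959 to 16393 bases over the members, so this scale orders the members only roughly. The summed CPM of all 78 members was 5094, 4570, 4816 and 4598 in the controls and 4916, 4712, 4989 and 4823 at 12 h. It was 4504, 4379, 4255 and 4515 at 24 h, 4253, 4216, 4276 and 4367 at 48 h and 4097, 4119, 4200 and 4206 at 72 h. The 12 h libraries overlapped with the controls in this sum, and all libraries of 24, 48 and 72 h lay below all controls. As a share of all counts, without TMM, members held 0.510% ± 0.0287 in the control, and after EGF 0.427% ± 0.003995 (12 h), 0.428% ± 0.0157 (24 h), 0.461% ± 0.0115 (48 h) and 0.422% ± 0.0122 (72 h).

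**Figure D3:**
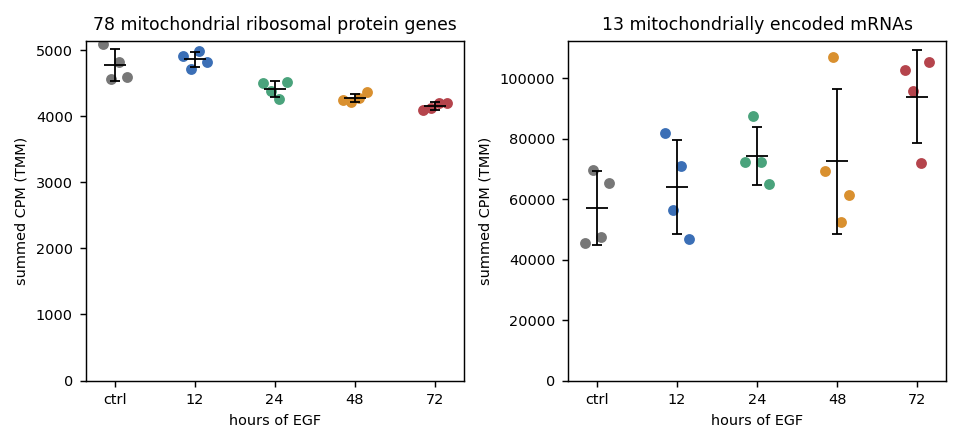
Summed CPM after TMM normalization of the 78 mitochondrial ribosomal protein genes and of the 13 mitochondrially encoded mRNAs in each library (points), by hours of EGF, with the mean and SD of 4 libraries. The members' sum has a mean of 4769 in the control and 4156 at 72 h, and that of the mitochondrial mRNAs 57060 and 93970.

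The mRNAs translated by these ribosomes had positive medians at every time, where those of the members were negative, a difference that was not tested. Of the 13 mRNAs encoded in mitochondrial DNA, 2 rose at 24 h, 1 at 48 h and 8 at 72 h. At 12 h edgeR called 0 (0 also at an unadjusted p under 0.05, and 0 by DESeq2). Their median log2 fold change was 0.22, 0.32, 0.39 and 0.76 at 12, 24, 48 and 72 h. Among all genes tested, 32.9%, 29.2%, 24.0% and 30.6% rose at these times. Only at 72 h did the share of these mRNAs that rose (61.5%) exceed that of all genes. The calls at 24 h were lost with library size only and with upper quartiles (medians 0.17 and 0.27), while 2 and 1 rose at 48 h and 7 and 7 at 72 h under these scalings. Their summed CPM was 57060 ± 12360 in the control and 93970 ± 15240 at 72 h, with ranges of 45410 to 69760 and 71920 to 105300. The 2 mitochondrial rRNAs had log2 fold changes of 0.26 and 0.40 at 72 h, both called, in libraries made from polyadenylated RNA, and both calls were lost with library size only (median 0.25) and with upper quartiles (0.30). Mitochondrially encoded genes took 10.9% of all counts in the control, 9.41% at 12 h and 15.04% at 72 h. With TMM factors computed without these genes, 22 members rose and 27 fell at 12 h and 6 rose and 46 fell at 72 h.

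Of the 79 nuclear subunits of the respiratory chain that were tested, 5 rose and 39 fell at 12 h, 1 and 56 at 24 h, 2 and 40 at 48 h and 1 and 59 at 72 h, with medians of -0.22, -0.35, -0.20 and -0.36. With library size only, 1 rose and 70 fell at 12 h (median -0.51), and with upper quartiles 1 and 56 (-0.39). Of the 77 cytosolic ribosomal proteins tested, 40 rose at 12 h, 15 rose and 4 fell at 24 h, 4 rose and 11 fell at 48 h and 52 fell at 72 h, with medians of 0.17, 0.09, -0.05 and -0.23. The rise of the cytosolic ribosomal proteins at 12 h flips with the scaling, to 1 higher and 25 lower with library size only and to 8 and 10 with upper quartiles. With TMM, 32.9% of all genes tested rose and 36.5% fell at 12 h, and 29.2% rose and 29.6% fell at 24 h. The shares were 24.0% and 21.8% at 48 h and 30.6% and 31.0% at 72 h. Whether these lists differed from the mitochondrial ribosomal proteins was not tested.

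**Figure D4:**
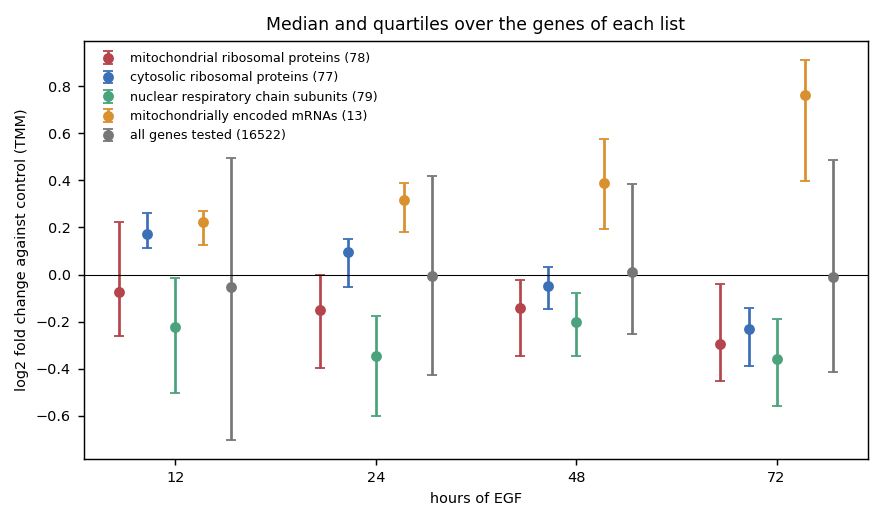
Median (points) and quartiles (bars) of the log2 fold change against the control over the genes of 4 lists and over all 16522 genes tested, by hours of EGF. The mitochondrial ribosomal proteins lie between the cytosolic ones (median 0.17) and the nuclear respiratory chain subunits (median -0.22) at 12 h, and the mitochondrially encoded mRNAs are highest at 72 h (median 0.76).

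5 further proteins of the mitochondrial ribosome have other gene names. DAP3, the GTP-binding protein of the small subunit, rose at 12 h from a mean of 174.5 to 255 CPM (log2 0.55 ± 0.06, SE, adjusted p = 1.67e-08) and lay at 239.5, 196.7 and 187.6 CPM at 24, 48 and 72 h. GADD45GIP1, of the large subunit, rose from 27.4 to 38.2 CPM at 12 h, CHCHD1 fell from 46.1 to 36.5 CPM, and PTCD3 and AURKAIP1 had 68.9 and 10.9 CPM at 12 h against 64.6 and 9.11 in the control. Of the 5, 2 rose and 1 fell at 12 h and 2 fell at 72 h. Over all genes tested, 32.9% rose and 36.5% fell at 12 h, and 31.0% fell at 72 h.

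Among the factors that build and serve the mitochondrial ribosome, 7 of 24 assembly factors rose and 4 fell at 12 h, and 5 rose and 12 fell at 72 h. At 12 h the balance flips to 2 higher and 12 lower with library size only and to 4 and 10 with upper quartiles. The largest of these changes at 12 h was a fall of YBEY, an RNA nuclease (log2 -1.33 ± 0.13, SE, adjusted p = 2.08e-09). Of 15 translation factors, 3 rose and 5 fell at 12 h and 1 rose and 11 fell at 72 h, and the initiation factor MTIF2 had the largest change at 12 h (log2 -0.96 ± 0.10, SE, adjusted p = 5.39e-09). With library size only 1 translation factor rose and 11 fell at 12 h, and with upper quartiles 3 and 9. Of 17 mitochondrial aminoacyl-tRNA synthetases, 3 rose and 5 fell at 12 h and 11 fell at 72 h, with PARS2, the prolyl-tRNA synthetase, changed most at 12 h (log2 -0.88). For the synthetases at 12 h, library size only gave 2 and 10 and upper quartiles 2 and 7. Of 13 regulators of mitochondrial transcription and biogenesis tested, 9 rose and 2 fell at 12 h (8 and 4 under either of these scalings) and 3 rose and 5 fell at 72 h. The largest rise was that of MYC (log2 1.89 ± 0.10, SE, adjusted p = 8.66e-14), a transcription factor that binds E-boxes. With TMM, 32.9% of all genes tested rose and 36.5% fell at 12 h, and 30.6% rose and 31.0% fell at 72 h. The shares of assembly factors that rose (29.2%) and of translation factors that fell (33.3%) at 12 h lay close to these.

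By GENCODE's starts, 29 members lie within 1000 bases of the start of a protein-coding gene transcribed the other way, 15 of them within 100 bases. Of these 29, 6 rose and 13 fell at 12 h and 2 rose and 19 fell at 72 h, and of the other 49 members 16 rose and 14 fell at 12 h and 3 rose and 27 fell at 72 h. Of 25 neighbors that are no members and were tested, 6 rose and 13 fell at 12 h. Among all genes tested, 32.9% rose and 36.5% fell at 12 h, and 30.6% rose and 31.0% fell at 72 h. MRPL14 and TMEM63B, 543 bases apart, had log2 fold changes of 0.83 and 0.81 at 12 h, and MRPL51 and NCAPD2, 485 bases apart, of -0.62 and -0.79. MRPL51 shares 31.3% of its exon bases with NCAPD2 on the opposite strand. With the strand setting unknown, the counts of MRPL51 and NCAPD2 may share reads. In other pairs the values lay far apart. MRPL47 had a log2 fold change of 0.09 where NDUFB5, a complex I subunit that starts 36 bases away, had -1.22. MRPL21 had 0.0029 where IGHMBP2, 7 bases away, had 1.04, and MRPL18 fell (-0.20) where TCP1, a chaperonin subunit 63 bases away, rose (0.72). MRPL46 and MRPS11, whose GENCODE starts are 34 bases apart and whose sequences shown overlap, are both members. MRPS11 went from 40.6, 38.8, 34.4 and 35.9 CPM in the controls to 21.6, 20.8, 21.9 and 19.8 at 12 h (log2 -0.83 ± 0.09, SE, adjusted p = 1.77e-08), while MRPL46 had a log2 fold change of -0.19 (adjusted p = 0.136). A difference within a pair was not tested, and the pairs were chosen after their values were seen.

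**Figure D5:**
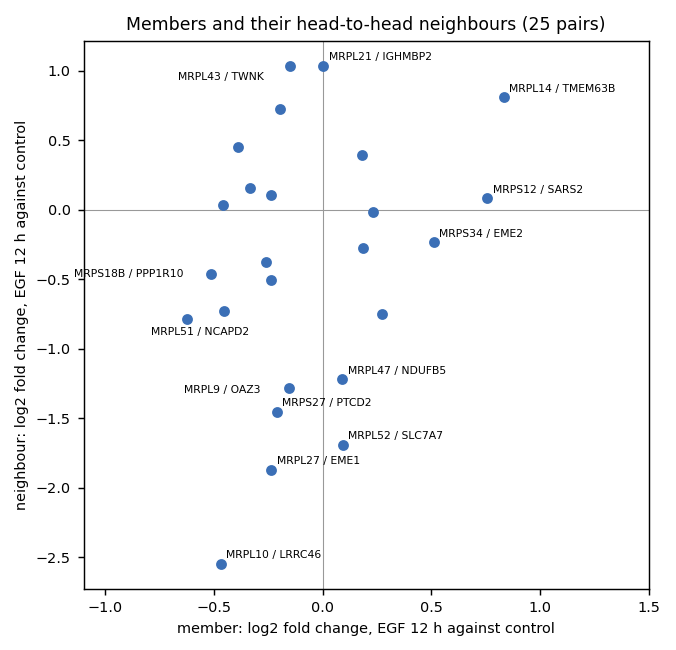
Log2 fold change at 12 h of EGF against the control of 25 mitochondrial ribosomal protein genes (horizontal) and of the protein-coding gene that starts within 1000 bases in the other direction (vertical), with the pairs of larger changes labeled. MRPL14 and TMEM63B lie together at 0.83 and 0.81, while MRPL21 (0.0029) lies far from IGHMBP2 (1.04).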

How the data were processed

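RNA was isolated from MDA-MB-468 cells, control or EGF-treated, and the library kit was Lexogen's Corall mRNA, read single-end by an Illumina NS500. Every table the authors deposited lists the same genes, with a whole-number count per gene and library and a normalized value, used here as a score on the scale of counts that the authors made in DESeq2. The submitters' processing notes name DESeq2 and hg38. The aligner, the annotation, the strand setting and the handling of unique molecular identifiers are not given in the sources used here, so counts may hold PCR duplicates and reads of overlapping genes. The counts were the same in all 10 tables, and 1 was used. Columns with the authors' fold changes and p-values were not used.

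The tools were R 4.3.3 with edgeR 4.0.16, which builds on limma 3.58.1. Genes were kept by filterByExpr with its defaults, libraries were scaled by TMM, and all 20 libraries entered 1 robust quasi-likelihood model of 5 group means, with a prior count of 0.125 for log2 fold changes. The procedure was run on simulated counts in which few genes changed, which does not test the scaling at 12 h. Groups came from the labels. Total counts were 15611961 to 25856953 per library, so that even the member with the fewest had 20 or more counts in each library. The labels call the replicates biological without saying which cultures they came from, and the p-values measure the spread between them. That spread was 3.53 to 57.5 times sampling noise (chi-square per degree of freedom, 30 pairs), which does not show whether the cultures were separate. All libraries were counted as separate samples because the labels call them biological replicates. Same-numbered libraries did not deviate together (40 pairs, correlation -0.239 to 0.348), so no pairing was used.

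Named with fold changes are, for each time against the control, the 3 largest rises and 3 largest falls, and for successive times the 2 largest of each, among members that passed the threshold whose mean reached 1 CPM and whose EGF libraries all lay on 1 side of all controls (of the earlier time), together with up to 3 members called against the majority direction, for which the libraries may overlap. Members, lists, tests and this rule were chosen with earlier results of these data known. Gene positions and exons are from GENCODE 29 (GRCh38), and promoters are RefSeq's for GRCh38.p14. No RefSeq promoter was matched for MRPL2, MRPL10, MRPL13, MRPL15, MRPL21, MRPL23, MRPL35, MRPS28 and MRPS36. Alternatives were other scalings (library size, upper quartiles, DESeq2's size factors, TMM without mitochondrially encoded genes), the DESeq2 1.42.0 Wald test, no filter, a minimum of 10 counts per library, fits of only the 8 libraries compared, a replicate block, glmTreat against 1.5-fold, a prior count of 2, leaving out each library, and, chosen after seeing the data, factors per gene from the authors' normalized values, where a gene had 20 or more counts in each library.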

Additional observations from a re-analysis of the deposited data

Results flagged for a closer look

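In 10 of 235 groups of 4 libraries, over 46 genes and the median of the members, the highest or lowest library stood apart by Dixon's test, which chance does in about 1 of 20 groups. At 24 h, replicate 3 was low for GADD45GIP1 (20.8 CPM, nearest other library 30.3), MRPS18C (32.6, nearest 41.1) and RPL8 (125.7, nearest 174.1), and replicate 1 was high for MRPL53 (6.18, nearest 4.41) and MRPS31 (24.96, nearest 21.6). At 72 h, replicate 2 was low for MRPL2 (21.4 CPM, nearest 25.7) and MRPL37 (224.4, nearest 244.4). At 12 h, replicate 2 was low for MRPL24 (17.7 CPM, nearest 20.8) and MRPS2 (113.6, nearest 118.7), and at 48 h replicate 2 was high for MRPS18A (40.2 CPM, nearest 33.9). The median over the members had no library apart in any group.

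For 6 of the members examined here that were called higher than the control at 1 time and lower at another, the times were tested against each other in the same edgeR fit. MRPL12 was lower at 48 than at 12 h (log2 -1.21) and at 72 than at 12 h (-1.101). MRPL20 differed from 12 h by -0.69 at 24 h, -0.69 at 48 h and -0.87 at 72 h. MRPL50 differed from 12 h by -0.695 at 48 h and -0.61 at 72 h. MRPS17 differed from 12 h by -0.63 at 24 h, -0.87 at 48 h and -0.98 at 72 h. MRPL55 was higher at 72 than at 24 h (0.85), and MRPS18B higher at 48 than at 12 h (0.72). MRPL16 and MRPL36 had the same kind of calls but were not among the genes examined. Differences between times are listed here only where they passed the threshold of 0.05.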

How the results depend on the processing

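Counts are of members higher and lower, and medians are log2 fold changes over the 78 members. Library size only gave 8 and 49 at 12 h (median -0.36), 3 and 53 at 24 h (-0.30), 3 higher at 72 h (-0.37), 16 and 15 from 12 to 24 h (-0.0524), 33 and 4 from 24 to 48 h (0.20) and 1 and 31 from 48 to 72 h (-0.18). Upper quartiles gave 13 and 41 at 12 h (-0.23), 16 and 18 from 12 to 24 h (-0.0786), a median of 0.10 from 24 to 48 h, and 1 and 23 from 48 to 72 h (-0.14). These scalings shift the median of all genes. Without a filter 3 members were higher at 72 h and 1 from 48 to 72 h, and with at least 10 counts in every library 5 were higher at 48 h and 13 from 12 to 24 h. With only the 8 libraries compared, 1 was higher and 18 lower at 48 h, and 15 higher from 12 to 24 h. Against a 1.5-fold change (glmTreat) the counts were 2 and 5 at 12 h, 0 and 4 at 24 h, 0 and 0 at 48 h, 0 and 3 at 72 h, 0 and 1 from 12 to 24 h, 1 and 0 from 24 to 48 h and 0 and 0 from 48 to 72 h, fewer by construction. Where glmTreat gave 0 and 0 at 48 h, edgeR without a fold limit called 3 and 32 and the DESeq2 Wald test 3 and 31. Factors per gene gave a median of -0.22 at 24 h and 0 higher at 48 h. Apart from the scalings, the cause of these shifts was not tested.

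Leaving out 1 library gave 1 to 4 higher at 48 h (1 without 48 h replicate 2), 3 to 7 higher at 72 h (changed by more than 1.5 times without control replicate 4 or 72 h replicate 4) and 1 to 3 higher from 48 to 72 h (1 without any of replicates 1, 3 and 4 of 48 or 72 h). The member median ranged from -0.0953 to -0.0384 at 12 h (-0.0384 without 12 h replicate 4, -0.0468 without control replicate 1) and from 0.006 to 0.0575 from 24 to 48 h (0.006 without 24 h replicate 3). All other counts under these settings stayed within 1.5 times. The DESeq2 Wald test, scaling by DESeq2's size factors, TMM without mitochondrially encoded genes and a prior count of 2 moved no count by more than that. With a replicate block, 22 members were higher and 27 lower at 12 h (11577 genes called, against 11465 without it), 7 and 35 at 24 h, 3 and 33 at 48 h and 6 and 46 at 72 h. Of the libraries, 8 of 20 correlated best with 1 of their own number.

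Of 42 named pairs of gene and comparison, with 1344 values under alternatives, 44 values were no longer called and 0 were reversed. In 25 of the 42 pairs the call was lost under at least 1 alternative. With glmTreat against 1.5-fold, the lost calls included MRPS12 at 12 h (adjusted p = 0.095) and MRPS10 at 24 h (adjusted p = 0.0914). MRPS6 and MRPL14 at 24 and 72 h were lost there too. The losses under other alternatives follow. MRPL55 at 72 h was lost with library size only (log2 0.34, adjusted p = 0.0886), upper quartiles (0.39, adjusted p = 0.0591), no filter, factors per gene and 4 libraries left out (0.35 to 0.47 over all such fits). MRPS24 at 48 h was lost with only 8 libraries, factors per gene and 4 libraries left out (control replicates 3 and 4, 48 h replicates 1 and 2), MRPS10 at 48 h with factors per gene (0.20, adjusted p = 0.115), and MRPS18B at 48 h with no filter, only 8 libraries, factors per gene and without 48 h replicate 2. Depth did not limit the members, all with 20 or more counts per library. Overlapping genes and the unknown strand setting limit MRPL12, MRPL51, MRPL53, MRPS17, MRPS18A and MRPS18C, among others.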
